A study of Mus musculus with 24 samples.

Results

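The mRNA abundance of 44 phase II conjugation genes, of 27962 gene names on the array, was compared between colon and liver and between diets in 12 female C57BL/6 mice. The genes were all those whose name in the array files begins with Ugt or Sult and a digit, or with Gst, one of the letters a, k, m, o, p, t or z, and a digit. They comprised 14 Ugt, 11 Sult and 19 Gst genes, read by 59 of the 41174 probes tested, and each gene was represented by its brightest probe on average. All mice were offspring of dams that ate a high-fat diet poor in selenium and folate (HF-low) through mating, gestation and lactation. From weaning at about 28 days until 12 weeks of age, 6 offspring stayed on that diet (HF-low-low) and 6 were moved to a high-fat diet sufficient in both nutrients (HF-low-suf). RNA came from whole colon and whole liver, each mouse gave both tissues, and the 4 groups held 6 arrays each. Nothing in the labels says which mice shared a dam, so the P values measure the spread between mice and not between litters.

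UDP-glucuronosyltransferases (Ugt) add glucuronic acid from UDP-glucuronate, cytosolic sulfotransferases (Sult) add sulfate from the donor PAPS, and glutathione S-transferases (Gst) add glutathione. The products are more soluble in water and leave the cell through export pumps into bile, blood or the gut lumen. Liver is the main site of all 3 reactions, and the intestinal epithelium carries out its own set of them on compounds that arrive with food. Many of the genes are regulated by the receptors CAR, PXR and AhR or by Nrf2, the factor that answers to oxidants and electrophiles. Because RNA was taken from whole tissue, fewer cells of a type and less RNA per cell cannot be told apart in any value below.

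Several of the genes are near-copies of one another, so the probe sequences are shown first where they decide what a value stands for. The end of the Gsta1 probe and the beginning of the Gsta2 probe read nearly the same stretch. Over 28 shared bases, in capitals, 27 are identical, and the substitution is T40A, counted from 1 at the 5′ end of the Gsta1 probe. The array files list transcripts of both genes for both probes. The Gsta2 probe lies on the reverse strand of chr9:78408171-78408230 (mouse build mm7, as in the array files), and no position is given for the Gsta1 probe.
Gsta1: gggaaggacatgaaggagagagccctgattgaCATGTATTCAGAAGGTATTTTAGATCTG
Gsta2: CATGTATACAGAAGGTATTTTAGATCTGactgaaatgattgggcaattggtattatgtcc

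The probes named for Sult2a2 meet in the same way. They share 17 bases, in capitals, of which 16 are identical, with the substitution A48G counted from the 5′ end of the dimmer probe. The brighter probe lies on the reverse strand of chr7:12414651-12414710 (mm7) and the dimmer one has no position in the array files. They are shown because their tissue differences, given below, were far apart although their sequences overlap at the ends. Whether both read the same transcript was not tested.
Sult2a2, brighter probe: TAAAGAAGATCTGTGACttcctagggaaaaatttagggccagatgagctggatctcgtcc
Sult2a2, dimmer probe: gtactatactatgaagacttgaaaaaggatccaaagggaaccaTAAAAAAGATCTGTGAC

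Ugt2a1 was read by 3 probes on the reverse strand of chromosome 5, listed here in order of intensity. The array files place the first over chr5:87398867-87399681 (mm7) and the second over chr5:87399702-87400835, stretches longer than the probes, and the last at chr5:87398687-87398746.
Ugt2a1, first probe: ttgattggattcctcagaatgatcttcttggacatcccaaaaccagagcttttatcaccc
Ugt2a1, second probe: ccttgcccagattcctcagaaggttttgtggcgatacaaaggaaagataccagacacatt
Ugt2a1, last probe: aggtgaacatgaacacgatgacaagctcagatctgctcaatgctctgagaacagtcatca

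Altogether 6 of the 59 probes list a transcript of another gene. Besides Gsta1 and Gsta2, these are the probes of Gstp1 (also Gstp2), Ugt2b37 (also Ugt2b36), Ugt2b38 (also Ugt2b37 and Ugt2b5) and Ugt1a6b. The main Ugt1a6b probe lies at chr1:88122519-88122578 (mm7) and lists several transcripts of the Ugt1a locus, whose genes have a first exon each and share the rest, so its values stand for the locus. A value of any of these probes is uncertain as to which gene gave it.

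Each array carried the RNA of 1 mouse tissue in Cy3 and a common reference in Cy5, with no dye swap, and values are log2 of the ratio of Cy3 to Cy5. In Cy3 the median signal over background was 3.77 to 7.22, and 26.1% to 71.9% of spots were well above background in Cy3. The labelled tissues carried their markers. All 6 hepatocyte genes measured were higher in liver, with a median difference of 5.33 log2 units, and all 7 colon epithelium genes were higher in colon, with a median difference of -5.52. Some livers stood apart in markers of other tissues. As the log2 of the mean linear ratio, which the highest genes dominate, HF-low-suf replicate 1 was at 3.36 over 4 adipose genes and replicate 2 at -1.12 over 5 skeletal muscle genes (mostly Mb, at 0.73), where the remaining 10 livers ran from -1.30 to -0.41 and from -4.42 to -3.33. On the same scale HF-low-suf replicate 4, HF-low-low replicate 6 and HF-low-suf replicate 5 were at -2.77, -2.89 and -3.20 over the colon epithelium genes (the others -4.27 to -3.70) and at -1.48, -1.58 and -2.03 over 5 exocrine pancreas genes (the others -3.01 to -2.64). The summed levels weigh heavily on Slc26a3, well above background on 3 of 12 livers. Of the colon markers bright on all 12 livers, Krt20 was highest in these 3 livers (-5.0, -5.36 and -5.53, the others -6.63 to -5.90), while Vil1 was highest in HF-low-low replicate 5 (-4.27), as was the bright pancreas marker Amy2 (-1.17). On the array of HF-low-suf replicate 4, 8.75% of spots were outliers.

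The reference did not match its label, which describes an equal pool of the colon and liver RNA of these same female mice. Transcripts of 4 Y-linked genes were well above background in Cy5 on all 24 arrays and in Cy3 on none. The median signal of Eif2s3y was 6393 in Cy5 and 144 in Cy3, and that of Ddx3y was 2334 in Cy5 and 167 in Cy3. The kidney genes Kap and Slc34a1 had median Cy5 signals of 587111 and 47493, against 1057 and 499 in Cy3. These genes were chosen after their values were seen. A pool of the arrayed RNA would put the mean ratio of a gene over the 24 arrays near 1. This mean lay within 2-fold of 1 for 89.3% of the 17014 probes that stood well above background in each channel on 12 or more arrays, and for 56.8% of the 44 genes described here. It was 41.1 for Sult2a2 and 16.5 for Sult3a1, whose Cy5 signals were well above background on 11 and 4 of 24 arrays, so that these ratios rest on a reference near background. The reference was common to all arrays and cancels in a difference between groups, but the level of a gene on 1 array is a level against this reference and not against the mean of the mice.

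Liver and colon differed in most of these genes. At a Benjamini-Hochberg adjusted P below 0.05 in limma and a fold change above 1.5, with the mouse as a random block, 30 of the 44 genes were higher in liver, 5 were higher in colon and 9 were not called. Among all 41174 probes, 11.4% were higher in liver and 12.2% higher in colon, and among the 19080 probes well above background on at least 6 arrays of a tissue the shares were 21.1% and 24.5%. Of the 44 genes, 42 were that bright. In 24 genes every liver lay above every colon and in 4 every liver lay below every colon, against 5.97% and 6.49% of all probes. The median difference, liver minus colon, was 1.42 log2 units over the genes and 0.02 over all probes. Of all probes called, 48.3% were higher in liver, and 29.2% with each array centred on its median in place of loess.

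The 3 classes did not have the same profile. Of the Ugt genes 12 of 14 were higher in liver and none in colon, with a median difference of 3.16. Of the Gst genes 12 of 19 were higher in liver and 1 in colon, with a median of 1.42. Of the Sult genes 6 of 11 were higher in liver and 4 in colon, with a median of 0.59. No test was made between the classes, since the genes of a class are related copies and not replicates. In the Sult class, Sult1c1 was called by a narrow margin at 0.59 (fold change 1.51, and the threshold is 1.5).

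**Figure D1:**
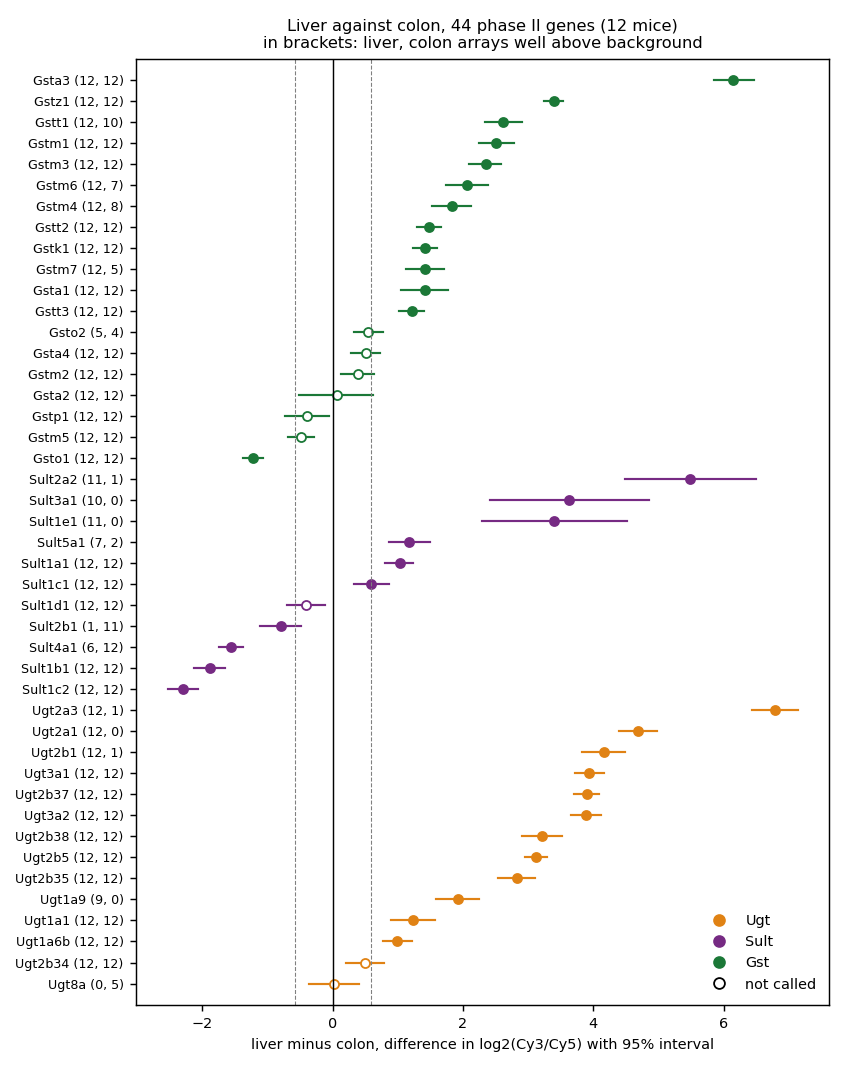
Liver minus colon for each of the 44 genes, as the difference in log2(Cy3/Cy5) with its 95% interval from limma over 24 arrays of 12 mice. Filled points were called, dashed lines mark a fold change of 1.5, and the numbers in brackets are the liver and colon arrays, of 12 each, on which the probe was well above background. The Ugt points lie to the right of zero, from 0.02 (Ugt8a, which fell below zero with median centring) to 6.79, while the Sult points run from -2.30 to 5.48.

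Among the glucuronosyltransferases, Ugt2a3, known for the glucuronidation of bile acids, had the highest fitted difference, against a colon signal that was well above background on 1 of 12 arrays. Its log2 ratio in the 12 livers ran from 1.75 to 2.52 with a median of 2.32, and in the 12 colons from -5.64 to -3.49 with a median of -4.34. The difference was 6.79 log2 units (standard error, SE, 0.17, limma adjusted P of 3.01e-22), with all 12 mice higher in liver, and its size depends on a colon level near background. The same holds for Ugt2b1, also well above background on 1 of 12 colons, at 4.16 (SE 0.16). Ugt2a1, best known from the olfactory epithelium, exceeded background clearly in all 12 livers and in 0 of 12 colons, so its fold change has only a bound. It was at least 18.1-fold higher in liver, taking for each colon array the higher of the dimmest Cy3 signal well above background and the probe's own signal (difference 4.69, limma adjusted P of 3.54e-20).

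Ugt3a1 and Ugt3a2, which use other sugar donors than the rest of the family, were alike in size. Ugt3a1 ran from -0.29 to 0.85 in liver (median 0.20) and from -4.04 to -3.41 in colon (median -3.70), a difference of 3.94 (SE 0.11). Ugt3a2 differed by 3.89 (SE 0.11). The livers and colons did not overlap in either gene.

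The Ugt1a genes had smaller gaps than most of the Ugt2 and Ugt3 genes. Ugt1a1, the bilirubin-conjugating enzyme, ran from 1.37 to 3.04 in liver (median 2.67) and from 0.18 to 1.56 in colon (median 1.31). It was 1.23 log2 units higher in liver (SE 0.16, limma adjusted P of 5.71e-07), higher in 12 of 12 mice, and the lowest liver lay below the highest colon. The probe shared by the Ugt1a locus differed by 0.99 (SE 0.10). Ugt1a9 was well above background on 9 of 12 liver and 0 of 12 colon arrays and was at least 2.64-fold higher in liver (limma adjusted P of 8.81e-11). Of the Ugt2b genes, Ugt2b35 differed by 2.83 (SE 0.14), while Ugt2b34, on the same chromosome, differed by 0.50 (SE 0.14, limma adjusted P of 0.00571), short of the fold threshold. Ugt8a, the ceramide galactosyltransferase of myelin, was well above background on 0 liver and 5 colon arrays, and its difference of 0.02 (95% interval -0.36 to 0.41) is that of a dim probe that turned to between -0.79 and -0.17 with other background corrections or scalings.

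The sulfotransferases split by tissue. Sult2a2, which sulfates hydroxysteroids and bile acids, ran from 1.45 to 7.25 in liver (median 6.30) and from -0.38 to 0.45 in colon (median 0.17). The difference was 5.48 (SE 0.49, limma adjusted P of 3.43e-10), and no liver overlapped a colon. Its probe was well above background on 11 of 12 livers and 1 of 12 colons, so the size of the difference depends on a colon level near background. Sult3a1, which sulfates amines, and Sult1e1, the estrogen sulfotransferase, were well above background on 10 and 11 of 12 livers and on 0 of 12 colons. Sult3a1 was at least 5.90-fold higher in liver (difference 3.63, limma adjusted P of 1.22e-05) and Sult1e1 at least 6.62-fold (difference 3.40, limma adjusted P of 7.17e-06). In each of them 11 of 12 mice were higher in liver, and the lowest livers lay within the range of the colons. Sult5a1 was well above background on 7 livers and 2 colons and differed by 1.17 (SE 0.15). Sult1a1, the main phenol sulfotransferase, was bright in both tissues and was 1.03 log2 units higher in liver (SE 0.10).

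The genes higher in colon were 4 sulfotransferases and 1 glutathione transferase. Sult1c2 ran from -2.14 to -0.76 in liver (median -1.62) and from 0.41 to 1.03 in colon (median 0.64). It was 2.30 log2 units higher in colon (liver minus colon -2.30, SE 0.11, limma adjusted P of 1.17e-15), in 12 of 12 mice. Sult1b1, which acts on thyroid hormones and phenols, had a difference of -1.89 (SE 0.12). Sult4a1, a form best known from brain for which no substrate is established, had a difference of -1.56 (SE 0.09). In these 3 genes no liver overlapped a colon. Sult2b1, the cholesterol sulfotransferase, was well above background on 1 liver and 11 colons and had a difference of -0.80 (SE 0.15, limma adjusted P of 8.01e-05). Sult1d1, which sulfates catecholamines, had a difference of -0.41 (SE 0.14), short of the fold threshold.

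Some neighbouring genes differed in direction. The pair Ugt3a1 and Ugt3a2 on chromosome 15 (3.94 and 3.89) did not. Nor did Gstt1, Gstt2 and Gstt3 on chromosome 10 (2.62, 1.48 and 1.21). Sult1b1, Sult1d1 and Sult1e1 have their probes on the reverse strand of chromosome 5 (mm7), from 87451685 to 87451744, 87492397 to 87492456 and 87512926 to 87512985, and had differences of -1.89, -0.41 and 3.40. The probes of Sult1c1 and Sult1c2 lie on chromosome 17 and had differences of 0.59, a narrow call, and -2.30. Opposite signs also occurred in the Gst class. Gsto1 and Gsto2 on chromosome 19 were at -1.22 and 0.55, and on chromosome 3 Gstm5 was at -0.48 and Gstm1 at 2.51. Gsto2 and Gstm5 were not called.

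Among the glutathione transferases, Gsta3, an alpha-class enzyme known for detoxifying aflatoxin epoxide in mice, ran from 2.0 to 2.95 in liver (median 2.28) and from -4.82 to -3.19 in colon (median -3.81). The difference was 6.15 (SE 0.15, limma adjusted P of 1.41e-22). Gstz1, the maleylacetoacetate isomerase of tyrosine breakdown, ran from 1.92 to 2.44 in liver (median 2.13) and from -1.44 to -1.0 in colon (median -1.24), a difference of 3.39 (SE 0.07). Gstt1 differed by 2.62 (SE 0.14) and Gstm1 by 2.51 (SE 0.13). In these 4 genes no liver overlapped a colon.

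The lowest of the Gst genes called as higher in liver were Gstt3 at 1.21 (SE 0.09), Gsta1 at 1.41 (SE 0.17) and Gstm7 at 1.42 (SE 0.14). Gsto1, an omega-class enzyme with thioltransferase activity, was the Gst gene higher in colon. It ran from -0.46 to 0.06 in liver (median -0.19) and from 0.72 to 1.27 in colon (median 1.06), a difference of -1.22 (SE 0.08, limma adjusted P of 1.85e-13).

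The Gst genes with the smallest gaps were bright in both tissues. Gsta2 had a difference of 0.06 (95% interval -0.51 to 0.62), or -0.33 with median centring, and its livers spread from -1.73 to 1.80 and its colons from -1.01 to 0.53. Gstm2 had a difference of 0.39 (limma adjusted P of 0.0147) and Gstm5 of -0.48 (adjusted P of 0.00016), and both missed the fold threshold. Gstp1 had a difference of -0.39 with an limma adjusted P of 0.0607. The mu-class genes lie in a cluster on chromosome 3, and 5 of the 7 were higher in liver while Gstm2 and Gstm5 were not called. All 3 theta-class genes were higher in liver, by 1.21 to 2.62.

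**Figure D2:**
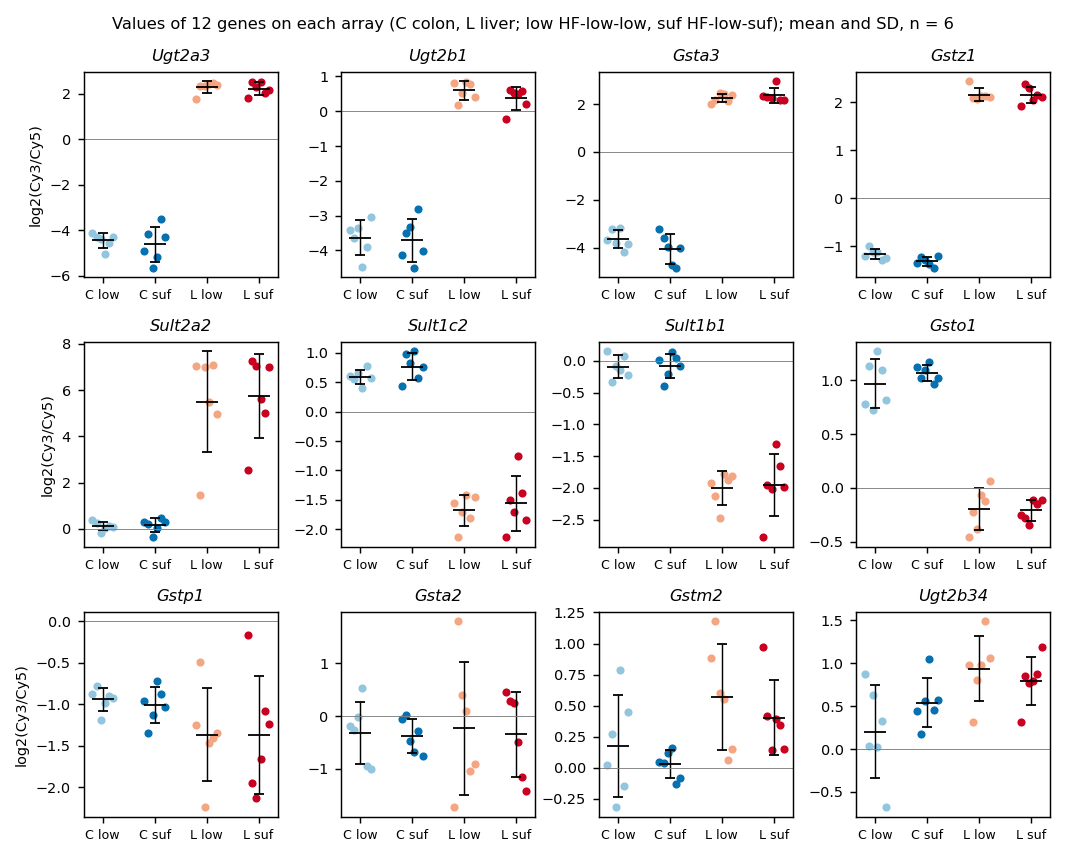
The log2(Cy3/Cy5) of 12 genes on each of the 24 arrays, in 4 groups of 6 mice, with the mean and SD of each group. For Ugt2a3, Gsta3, Gstz1, Sult1c2, Sult1b1 and Gsto1 the livers and colons do not overlap, while for Gsta2 the range of the colons lies inside that of the livers.

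With the 12 paired differences of the mice in place of the limma fit, the smallest P an exact sign permutation test can give is 0.000488, two-sided. Among the 35 genes called it was reached by all but Sult2b1 (0.000977), Sult1e1 (0.00146) and Sult3a1 (0.00146), and among the others by Gsta4, Gsto2 and Gstm5.

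In 9 of the 13 genes with several probes, the probes differed in sign or by more than 1 log2 unit in the tissue difference. For Sult2a2, the brighter probe gave 5.48 and the dimmer one 0.78 (SE 0.26, well above background on 6 of 12 livers). For Ugt2a1, the first and second probes gave 4.69 and 3.78, and the last gave 0.07 (SE 0.17), with a signal well above background on 1 liver and 1 colon. Gsta3 gave 6.15 and 4.45, Ugt3a2 gave 3.89 and 2.87 and Sult1b1 gave -1.89 and -0.69, in each case with 1 direction. Sult4a1 gave -1.56, and -0.45 on a probe that was well above background on 0 arrays of either tissue, so that the second value shows no direction. Gstp1 gave -0.39 and 0.11 on probes that were bright on all 24 arrays, Gsto2 gave 0.55, and -0.03 on a probe well above background on 0 livers and 1 colon, and the 3 probes of Ugt8a gave 0.02, 0.22 and -0.03. Whether the dimmer probes bind their transcripts poorly or read other transcripts was not tested.

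**Figure D3:**
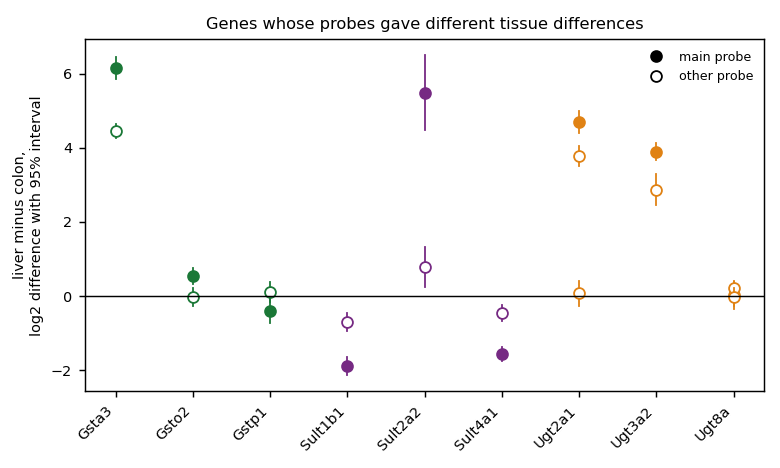
Liver minus colon for every probe of the 9 genes whose probes differed, as log2 differences with 95% intervals over 24 arrays. Filled points are the brightest probe of the gene. The Sult2a2 probes stand at 5.48 and 0.78, and the Ugt2a1 probes at 4.69, 3.78 and 0.07.

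Genes around the conjugation step were compared between the tissues in 4 lists, whose counts stand beside the 21.1% of bright probes higher in liver and the 24.5% higher in colon. Of 15 other conjugating enzymes measured, 10 were higher in liver and 3 in colon (median difference 1.43). The highest fitted value was that of Baat, which joins bile acids to taurine and glycine, at 6.30 (SE 0.11), with a signal well above background on 2 of 12 colons. The lowest was Mgst2, a microsomal glutathione transferase, at -4.43 (SE 0.13). Mgst3, of the same microsomal group, was at -2.85, while Mgst1 was at 2.77.

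Of 11 genes that supply the cofactors, 3 were higher in liver and 4 in colon (median 0.01). Gclc, the catalytic subunit of the first enzyme of glutathione synthesis, was the highest at 1.84 (SE 0.17). Papss1, which makes PAPS, was the lowest at -2.72 (SE 0.15). Papss2 was at -0.80, and Ugdh, which makes UDP-glucuronate, was at -1.86 (SE 0.14).

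Of 12 genes of conjugate export and hydrolysis, 4 were higher in liver and 2 in colon (median 0.39), from Abcc2, the canalicular exporter of conjugates, at 4.42 (SE 0.13, well above background on 2 of 12 colons), to Dpep1, a dipeptidase that acts on glutathione conjugates, at -3.14 (SE 0.11). Of 12 regulators and their targets, 5 were higher in liver and 1 in colon (median 0.38). The highest was Nr1i3 (CAR) at 2.95 (SE 0.20) and the lowest Nfe2l2 (Nrf2) at -1.11 (SE 0.12). In all 4 lists together the diet called no gene in either tissue at the threshold used below.

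The diets were compared within each tissue. By the dyes given in the labels, a positive diet value stands for more mRNA in the HF-low-suf group and a negative one for more in the HF-low-low group. This direction is opposite to the signs in the study's lists of changed genes for nearly all of their probes, though not to its text on myoglobin. In these data the liver diet value of the myoglobin gene Mb was 0.65 (unadjusted limma P of 0.199), with HF-low-suf replicate 2 at 0.73 and the other livers at -2.94 to -1.78. With the study's threshold, a fold change of more than 1.5 and an unadjusted limma P below 0.01, 0 of the 44 genes were called in liver and 0 in colon, against 0.117% and 0.168% of all probes. Without HF-low-low replicate 6, 1 gene was called in liver, Sult2b1 at 0.65 (SE 0.20), which was well above background on 1 of 12 livers. At an adjusted P below 0.05 there were 0 genes in either tissue, as for all probes. An unadjusted P below 0.05 was reached by 0 of the 44 genes in liver and 2 in colon, against 2.13% and 2.98% of all probes.

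In liver, the diet values of the 41 genes bright on 6 or more of the 12 arrays ran from -0.62 to 0.24, with a median of -0.06. For 23 of these 41 the 95% interval lay within a fold change of 1.5 in either direction, so a change of that size lies outside the interval, and for 18 it did not. The largest values among them were those of Sult2a2 at 0.24 (95% interval -1.86 to 2.33), Sult1c2 at 0.12 (-0.33 to 0.57) and Ugt2b38 at 0.11 (-0.46 to 0.68). The lowest were Sult1e1 at -0.62 (-2.89 to 1.66), Sult3a1 at -0.36 (-2.94 to 2.22) and Ugt2b35 at -0.28 (-0.72 to 0.16). Their exact permutation P values, two-sided over the 924 assignments of the 12 mice, lay between 0.221 and 0.812.

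For Ugt2b35 the HF-low-low livers were 2.25, 1.78, 1.59, 1.85, 2.74 and 2.11 and the HF-low-suf livers 1.54, 1.71, 1.66, 1.38, 2.15 and 2.22, so the groups overlapped. In Sult1e1 the HF-low-low livers were 3.96, 1.98, 4.32, 3.79, 4.54 and 0.76 and the HF-low-suf livers -0.83, 5.24, 5.30, 0.19, 1.43 and 4.34. High and low livers occurred on each diet, and the SD within a diet was 2.18, against a diet value of -0.62. Of the low livers, HF-low-low replicate 6 (0.76) and HF-low-suf replicates 4 (0.19) and 5 (1.43) are those with the higher colon and pancreas values, and HF-low-suf replicate 1 (-0.83) is the one with raised adipose genes. The part of these signals was not tested.

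In colon, the diet values of the 33 genes bright on 6 or more of the 12 arrays ran from -0.40 to 0.34, with a median of 0.02, and for 28 of them the 95% interval lay within a fold change of 1.5. The largest were Ugt2b34 at 0.34 (-0.14 to 0.82), Gstm6 at 0.33 (-0.05 to 0.70) and Ugt1a1 at 0.31 (-0.10 to 0.71). The lowest were Gsta3 at -0.40 (-0.94 to 0.15), Gstm1 at -0.19 (-0.57 to 0.18) and Sult4a1 at -0.17 (-0.48 to 0.15). Their exact permutation P values were between 0.119 and 0.297. The 2 genes with an unadjusted P below 0.05 were dim. Ugt2a1 had a diet value of 0.47 (limma P of 0.0373, exact permutation P of 0.0628) and Sult3a1 of -0.32 (limma P of 0.0468, exact permutation P of 0.0390), and neither was well above background on any colon array. Their adjusted P in limma was 0.999936. Gstz1 had an exact permutation P of 0.0260 in colon with a diet value of -0.15 and a limma P of 0.205.

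By class, the median diet value in liver was 0.05 for Sult, -0.06 for Gst and -0.10 for Ugt, and in colon 0.02 for Sult, 0.01 for Gst and 0.02 for Ugt, beside 0.01 in liver and -0.01 in colon over all probes. The diet effect was also compared between the tissues over all 24 arrays. At an adjusted P below 0.05 in limma 0 of the 44 genes differed, as for all probes, and at an unadjusted P below 0.05 there was 1 (Ugt2a1, -0.66, P of 0.0299, adjusted P of 0.731), against 6.43% of all probes.

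**Figure D4:**
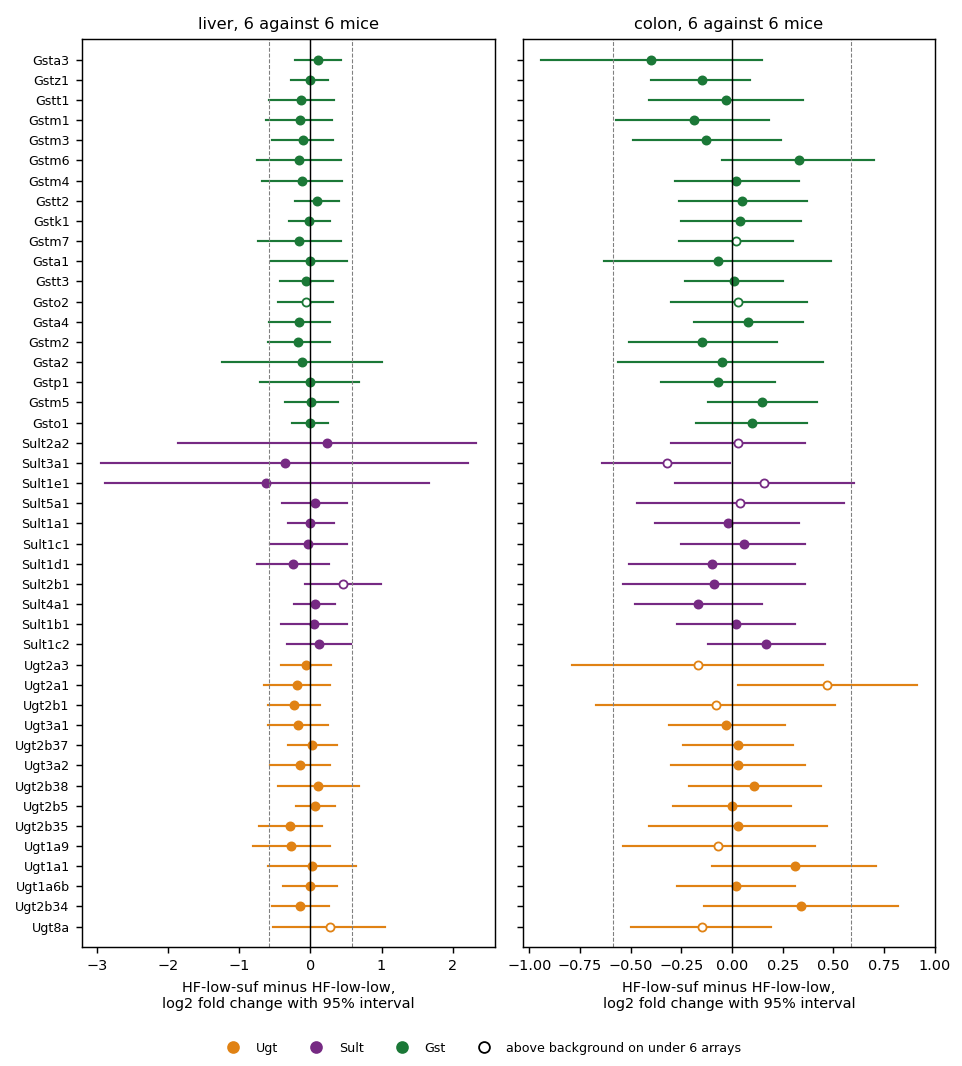
The diet effect on each of the 44 genes in liver and colon, HF-low-suf minus HF-low-low, as log2 fold changes with 95% intervals from limma on 12 arrays each. Open points were well above background on fewer than 6 arrays of the tissue, and dashed lines mark a fold change of 1.5. The panels have different scales. The widest intervals in liver are those of Sult1e1, Sult2a2 and Sult3a1, and no gene passed the threshold in either tissue.

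The spread between mice on the same diet was wider in some genes than any diet value. Among genes well above background on all 12 livers, the SD within a diet was 1.06 for Gsta2, 0.64 for Gstp1 and 0.56 for Ugt1a1, and on all 12 colons 0.53 for Gsta1, 0.51 for Gsta3 and 0.47 for Gsta2. For Sult3a1, Sult1e1 and Sult2a2 in liver, which fell short of background on 1 or 2 arrays, it was 2.47, 2.18 and 2.01.

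The livers of 1 mouse on each diet stood at the same end in several genes. For Sult2a2 the HF-low-low livers were 7.04, 1.45, 7.02, 5.47, 7.07 and 4.95, and the HF-low-suf livers 2.53, 7.25, 7.05, 5.61, 4.99 and 6.99. For Sult3a1 the values were 6.73, 0.01, 3.42, 4.61, 6.12 and 2.18 and then 0.17, 3.68, 6.41, 1.40, 3.47 and 5.77. HF-low-low replicate 2 and HF-low-suf replicate 1 were the lowest of their diet in both. The same livers were the highest of their diet in Gstm1, at 1.61 against 0.64 to 0.99 in the other HF-low-low mice and at 1.66 against 0.38 to 0.97 in the other HF-low-suf mice.

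They were also the highest in Gstp1, a pi-class enzyme that conjugates electrophiles, where HF-low-low replicate 2 was at -0.49 (others -2.24 to -1.25) and HF-low-suf replicate 1 at -0.17 (others -2.13 to -1.08). HF-low-low replicate 2 was the highest liver in Gsta1 (1.82) and Gsta2 (1.80), whose probes share sequence as shown above, while HF-low-suf replicate 1 was at 1.01 and 0.46. These genes were picked after their values were seen, and no test was made. The raised adipose level of HF-low-suf replicate 1 (3.36) was not present in HF-low-low replicate 2 (-1.20), and the hepatocyte genes were at 1.77 and 2.02 in these livers, within the range of 1.57 to 2.33 over livers. Within the smooth muscle and hepatocyte lists the genes did not move together in these livers. Over the smooth muscle genes HF-low-suf replicate 1 (-1.68) and HF-low-low replicate 2 (-1.72) were the highest of their diet (livers down to -3.54). HF-low-suf replicates 4 and 5 were close, at -1.7 and -1.73. Tagln peaked in the same livers (-0.1 and -0.13), while Acta2, Actg2, Myh11 and Des peaked in others on each diet. Of the hepatocyte genes, Cyp2e1 (0.78 and 1.06) and Ttr (1.61 and 1.68) were lowest there. Alb1, Apoa1, Cps1 and Tat were not, with Apoa1 at 2.11 and 1.98 and Tat at 2.53 and 2.98. The part of these signals in the values of both livers was not tested. In the colon of HF-low-low replicate 2 Gstm1 was at -1.30 and Gstp1 at -0.78, the highest of that diet (tied for Gstm1). In the colon of HF-low-suf replicate 1 they were at -1.5 and -0.96, below HF-low-suf replicate 4 at -1.37 and -0.72. All colons ran from -2.15 to -1.30 in Gstm1 and from -1.34 to -0.72 in Gstp1.

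**Figure D5:**
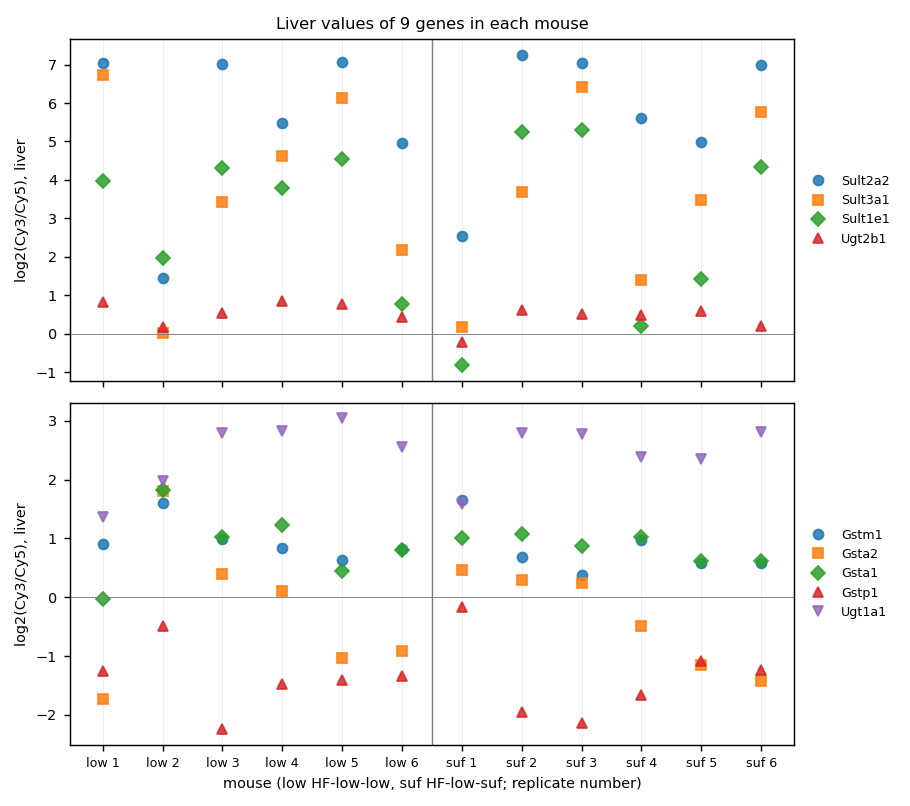
The log2(Cy3/Cy5) of 9 genes in the liver of each of the 12 mice, with the diets separated by a vertical line. In HF-low-low replicate 2 and HF-low-suf replicate 1, Sult2a2 and Sult3a1 are the lowest and Gstm1 and Gstp1 the highest of their diet.

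The promoters of the genes were searched for the core of the antioxidant response element (TGACNNNGC), which Nrf2 binds, and for a relaxed form of the site of HNF1, in which 1 arm is not fully specified, a factor of liver and gut epithelium, on both strands in the 250 bases before the start in the RefSeq set (GRCm38.p6). A promoter was found for 38 of the 44 genes, and the first listed was used for the 9 with several. The first motif was in 2 of 38, or 5.26%, against 10.2% of all 32851 promoters, and the second in 1, or 2.63%, against 0.0335%. The left arm of the HNF1 site alone (GTTAAT), searched after these counts were seen, was in 7 of 38, or 18.4%, against 6.43%. It was in 6 of the 26 genes higher in liver and in 1 of the 12 others, and the related copies in these families are not independent.

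The windows below hold some of the matches, in capitals, with up to 25 bases on each side. The left-arm matches of Gsta3, Sult1a1 and Ugt1a1 (liver minus colon 6.15, 1.03 and 1.23) are not shown. The window of Ugt2a3 holds a further GTTAAT in lower case. They are shown because they contrast genes with wide and narrow tissue gaps (liver minus colon 6.15 for Gsta3, -0.48 for Gstm5, 3.94 for Ugt3a1, 6.79 for Ugt2a3, 1.92 for Ugt1a9 and -0.41 for Sult1d1). A match is a run of letters and not a bound site. Gsta3, chr1:21240439-21240497, and Gstm5, chr3:107895787-107895845, hold the antioxidant response core, Ugt3a1, chr15:9279674-9279736, the relaxed HNF1 site on the opposite strand, and Ugt2a3, chr5:87337219-87337274, Ugt1a9, chr1:88070663-88070718 (on the opposite strand), and Sult1d1, chr5:87569055-87569110, the left arm. Gsta3, Gstm5, Ugt3a1 and Ugt1a9 are on the forward strand and Ugt2a3 and Sult1d1 on the reverse strand.
Gsta3: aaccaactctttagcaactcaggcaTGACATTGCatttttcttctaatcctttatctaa
Gstm5: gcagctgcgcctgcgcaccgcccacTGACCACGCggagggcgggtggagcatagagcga
Ugt3a1: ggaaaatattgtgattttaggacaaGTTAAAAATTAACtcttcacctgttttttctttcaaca
Ugt2a3: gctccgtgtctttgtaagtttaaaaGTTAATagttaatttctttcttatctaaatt
Ugt1a9: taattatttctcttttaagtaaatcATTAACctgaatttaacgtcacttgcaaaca
Sult1d1: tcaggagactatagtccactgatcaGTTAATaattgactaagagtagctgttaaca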

How the data were processed

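RNA of each sample (Cy3) was hybridised with a common reference (Cy5) to 24 two-colour arrays. The authors deposited the scanner output, as spot intensity in each channel with its local background, and the labels name limma for their own processing. Gene names and mm7 positions are those of the array files.

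Intensities were corrected with normexp (offset 50), normalised by loess within each array, and averaged over spots of a probe, with control spots and outlier spots left out (limma 3.58.1, statmod 1.5.0, R 4.3.3). Log2(Cy3/Cy5) was tested over 41174 probes. The diets were compared on the 12 arrays of each tissue, and the tissues and the interaction on all 24, where a random block stood for the mouse (correlation 0.158). Single genes also had 2-sided exact permutation tests. A probe was called bright when well above background on at least 6 arrays. Each of the 6 slides held 1 array of every group, and the arrays were scanned on 2 days. Replicates of a group correlated with r of 0.655 to 0.938 and precision is limited by the number of arrays.

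Of 200 probes changed in simulated data, the fit recovered 97% (liver diet) and 98% (colon diet) at a log2 change of 2, and 99% (tissue) at 1.5. Calls were made at an adjusted P below 0.05, and 13, 14 and 12 unchanged probes were called. Diet changes near a fold of 1.5 were not simulated, so these shares do not speak for them.

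The genes named are, by class, the 4 called genes with the highest and the 4 with the lowest tissue difference and the 4 smallest differences, and by tissue the 3 highest and 3 lowest diet values and the 3 largest spreads, plus genes whose probes differed. The genes and lists were chosen with earlier results of these data known. Alternatives covered background correction, normalisation, dim probes, scan day, replicate block and leaving out each replicate.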

Additional observations from a re-analysis of the deposited data

Results flagged for a closer look

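Among the genes named in the report, 148 groups of 6 arrays were examined for a mouse far from the other 5 of its group (Dixon's 95% limit), and 9 were found, or 6.08%, where chance gives about 1 in 20. In liver, Gsta3 was at 2.95 in HF-low-suf replicate 4 (the others 2.15 to 2.32), Gstm1 at 1.61 in HF-low-low replicate 2 (0.64 to 0.99), Gstz1 at 2.44 in HF-low-low replicate 1 (2.06 to 2.13) and Ugt2a3 at 1.75 in the same mouse (2.32 to 2.46). In HF-low-suf replicate 1, also in liver, Gstm2 was at 0.97 (0.14 to 0.42), Gstt3 at 1.08 (1.79 to 2.17), Ugt1a1 at 1.58 (2.35 to 2.81) and Ugt1a6b at 0.72 (1.23 to 1.49). That liver held 4 of the 9 and is the one with the raised adipose genes (3.36). The part of that signal in these values was not tested. In colon, Ugt1a1 was at 0.18 in HF-low-low replicate 6 (0.99 to 1.43).

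The reference channel, which is the denominator of every ratio and cancels between groups, held a signal for Y-linked genes although the labels call it female. The median Cy5 and Cy3 signals over the 24 arrays were 2334 and 167 for Ddx3y, 6393 and 144 for Eif2s3y, 710 and 172 for Jarid1d and 371 and 145 for Uty.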

How the results depend on the processing

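The number of genes called between the tissues moved by less than 1.5 times in all 26 alternatives run for it. Leaving out each replicate gave 29 to 31 genes higher in liver and 5 higher in colon, by class 12 to 13 Gst, 5 to 6 Sult and 12 Ugt genes higher in liver. One more Gst gene was higher in colon, 2 in all, with the signals processed by Feature Extraction, with median centring and with the Cy3 channel alone, and 1 Ugt gene (main value 0) with the first of these. Sult1c1 lost its call in 7 alternatives, at 0.20 to 0.58, and Ugt1a6b with the Cy3 channel alone, at 0.54. Named genes short of the threshold passed it in 12 cases: Gsto2 at 0.59 to 1.29 in 5, Gstm5 at -0.60 and -0.90, Sult1d1 at -0.69 and -0.68, Gstm2 at 0.67, Gstp1 at -0.74 and Ugt2b34 at 0.77. Gsta2 turned to -0.30 on scan day 2 alone and to -0.33 with median centring. Ugt8a turned to -0.17 with no background correction, -0.29 with plain subtraction, -0.79 with Feature Extraction signals, -0.21 with median centring and -0.40 with Cy3 alone. The diet value in colon turned to 0.02 for Sult4a1 on scan day 2 alone and to -0.12 for Ugt2b34 on scan day 1 alone. The causes were not tested. A change of sign was counted where the value was called or moved by more than its standard error.

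The number of genes called for diet in liver was 0 to 1 without each replicate, with 1 (Sult2b1) without HF-low-low replicate 6, and in colon it stayed at 0. Same-numbered arrays of the diets did not deviate together in every pair (r of -0.5 to 0.528 in liver and -0.0851 to 0.238 in colon). Such correlations cannot settle whether the numbers pair the arrays. With the replicate block 0 genes were called in either tissue. Over all probes in liver, that block called 124 higher and 7 lower in HF-low-suf, against 40 and 8 in the main fit. In colon it called 81 and 11, against 66 and 3. Without the mouse as a block (no replicate block) 30 genes were higher in liver and 5 in colon. Dim probes limit what could be seen: 41 of the 44 genes were well above background on at least 6 livers and 33 on at least 6 colons.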
